A study of Caenorhabditis elegans with 6 samples.

Results

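Apical matrix and molting proteins of Caenorhabditis elegans were examined in RNA pulled down from PVD and OLL sensory neurons and in RNA of whole larvae. The members were the genes named mlt, cut, cutl, lpr, noah or nas with a number, together with let-653, fbn-1, sym-1, bli-4, bli-5 and dpy-31. They were chosen by name and not by level. Of 94 such genes in the RefSeq table, 90 had a probe set listed for them alone and were analysed, out of 17118 genes in all. cutl-23, nas-2, nas-3 and nas-23 were not analysed here. The 90 comprised 33 nas, 28 cutl, 8 mlt, 7 lpr, 6 cut and 2 noah genes and the 6 named singly.

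In the PVD and OLL group, poly(A) RNA was pulled down through PAB-1, the poly(A) binding protein, which carried a 3X FLAG tag and was made from the ser-2prom3B promoter fragment (3 arrays). The whole animal group was total RNA of whole larvae (3 arrays). Larvae of both groups were at the L3/L4 stage and grew at 25 °C, both RNAs were amplified with the NuGEN WT-Pico kit, and the labels used here give no strain or allele. The kind of RNA and the tissue changed together between the groups, so their effects cannot be told apart. The reach of the promoter fragment limits how far the pulled-down RNA stands for these neurons. Only the PVD and OLL titles name biological replicates, and the p-values therefore cover the variation of these arrays, part of which may be technical.

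PVD neurons spread a branched dendritic tree under the skin, and OLL neurons are ciliated sensory neurons of the head. Skin cells, seam cells, vulval cells, the cells lining the excretory and rectal openings, the pharynx and the socket and sheath glia that surround sensory endings all build extracellular matrix on their apical surface. A transient precuticle of zona pellucida (ZP) proteins, lipocalins and leucine-rich repeat proteins comes before each new cuticle. At each molt the old cuticle is loosened by secreted proteases and shed, and many of these transcripts rise and fall once per larval stage. Bulk RNA does not tell fewer cells of a type from less RNA per cell, and a transcript in the pulled-down RNA is not thereby placed in the neurons.

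Signals are the authors' RMA values on a log2 scale. Of 15 PVD and OLL markers, listed with earlier results of these data known, 11 were higher and 0 lower, against 8.10% and 4.66% of all genes. The largest were the nicotinic receptor subunit genes deg-3 (4.27 ± 0.38, log2, SE) and des-2 (4.09 ± 0.23). The ser-2 gene itself, the source of the promoter fragment, was not called (0.72 ± 0.35, adjusted p = 0.202). Nor were mec-10 (0.78 ± 0.22), F49H12.4 (0.03 ± 0.23) and eat-4 (0.01 ± 0.25). The third replicate stood apart in both groups. PVD and OLL replicate 3 correlated at 0.954 and 0.961 with the other PVD and OLL arrays, which correlated at 0.988 with each other. Whole animal replicate 3 correlated at 0.938 and 0.940 with the other whole animal arrays, which correlated at 0.973. The bioB and bioC spike-in controls had a median signal of 9.05, 9.03 and 9.15 in the PVD and OLL group, against 9.76, 9.85 and 10.83 on whole animal replicates 1, 2 and 3. The yolk protein gene vit-2 read 5.61, 5.25 and 4.07 on the PVD and OLL arrays, against 7.06, 7.15 and 9.98 on the whole animal arrays. A background level was taken per array from 32 controls without a target in the worm, at their 95th percentile. It ran from 2.28 to 2.44 in the PVD and OLL group, against 2.95 to 3.43 in the whole animal group. These controls themselves were lower in the PVD and OLL group by a median of -0.50 (log2). Members near background are given with this in mind.

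Of the 90 members, 12 were higher in PVD and OLL RNA and 7 lower (limma, adjusted p under 0.05 over all probe sets). That is 13.3% and 7.78% of the members, against 8.10% and 4.66% of all 17118 genes. In either direction 21.1% of the members were called, against 12.8% of genes and 13.6% of probe sets. Members were mixed in direction: their median difference was -0.06 (log2), beside -0.07 over all genes. The 12 rises were 5 lipocalins (lpr-1, lpr-3, lpr-4, lpr-5, lpr-6), the matrix genes sym-1, fbn-1, noah-2 and cutl-20, and the astacin protease genes nas-14, nas-15 and nas-37. The 7 falls were nas-16, nas-21, nas-27, cut-3, cutl-1, cutl-4 and the protease inhibitor gene bli-5. On 25 members every PVD and OLL array lay above every whole animal array (27.8%, against 18.4% of all genes), and on 20 the order was the other way round (22.2%, against 21.9%), which together takes in 40.3% of all genes. Signal was above background on all 3 PVD and OLL arrays for 58 of the 90 (66.6% of all genes did so) and on all 3 whole animal arrays for 37 (49.9% of all genes). It was above background on at least 1 array for 75 members (82.7% of all genes) and on none for 15.

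**Figure D1:**
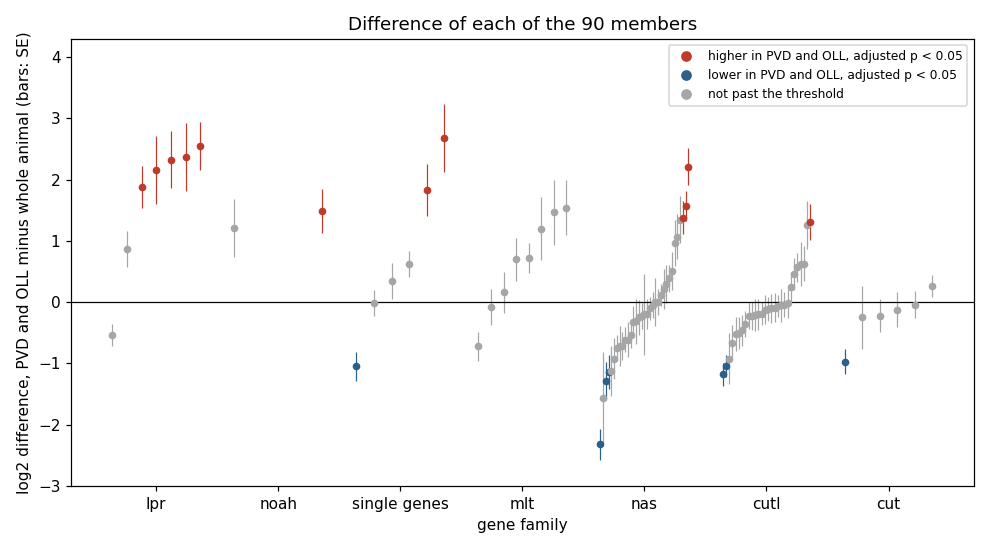
Log2 difference between PVD and OLL and whole animal arrays for each of the 90 members, in order of size within each family, with bars for the moderated standard error. The lpr family lies highest with 5 of 7 called higher, and nas genes run from -2.32 to 2.21.

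How the calls divided by direction changed with scaling. Of the members' calls 63.2% were higher on the deposited values, 50% with arrays centred on their medians, 41.7% after repeated quantile normalization and 46.7% after cyclic loess. The same shares over all probe sets were 68.5%, 43.1%, 54.2% and 52.6%. Centring on medians moved the median difference of all probe sets by -0.20.

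The lipocalin-related (lpr) genes encode secreted proteins with a predicted lipid-binding barrel, and the lpr-1 and lpr-3 products are known to keep narrow epithelial tubes such as the excretory duct open and to shape the cuticle. This was the family with the highest median, 2.16, and it stayed positive at 1.96, 1.89 and 1.79 under the 3 other scalings. lpr-3 (probe set 177650_at), the brightest lipocalin, had signals of 8.48, 8.55 and 8.09 in PVD and OLL RNA, against 6.39, 7.0 and 4.63 in whole animals. It rose by 2.37 ± 0.55 (log2, SE, adjusted p = 0.0321), a 5.15-fold difference, and its other probe set gave 2.83 (adjusted p = 0.0379). The groups did not overlap, and whole animal replicate 3 was the lowest array. lpr-1 (186995_at) read 4.95, 5.14 and 6.29 in PVD and OLL RNA, against 2.85, 3.35 and 2.52 in whole animals. Here PVD and OLL replicate 3 was the highest, and no whole animal array exceeded background, so the difference of 2.55 ± 0.39 (adjusted p = 0.00904) is given as at least 4.94-fold.

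Next to lpr-3 in assembly WBcel235 lie lpr-6, lpr-5 and lpr-4, with no other protein-coding gene between them. All 4 neighbours rose. lpr-6 (177724_at) read 6.33, 6.05 and 5.76 in PVD and OLL RNA, against 4.51, 4.05 and 2.57 in whole animals (2.33 ± 0.47, adjusted p = 0.0208). lpr-5 (173579_s_at) read 6.0, 6.06 and 5.29, against 4.50, 4.08 and 2.28 in whole animals (2.16 ± 0.55, adjusted p = 0.0419), on a probe set that can match several transcripts. lpr-4 (177916_at) read 6.88, 6.64 and 6.61, against 5.34, 5.11 and 4.04 in whole animals (1.88 ± 0.34, adjusted p = 0.0150). In each of these genes the PVD and OLL arrays lay above all whole animal arrays and replicate 3 was the lowest whole animal array. The remaining pair did not pass the test: lpr-2 differed by 0.87 ± 0.29 (adjusted p = 0.0860) and lpr-7 by -0.54 ± 0.18 (adjusted p = 0.0904), with its other probe set at 0.16. lpr-7 passed as lower under each of the 3 other scalings (adjusted p between 0.0275 and 0.0428). After repeated quantile normalization lpr-1 and lpr-4 kept their calls, while lpr-3, lpr-5 and lpr-6 had adjusted p-values of 0.0517, 0.102 and 0.0554. With cyclic loess lpr-5 was the lipocalin that lost its call (adjusted p = 0.0886).

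ZP proteins polymerise into fibres of the precuticle and cuticle. noah-1 and noah-2 encode relatives of Drosophila NompA, which links sensory dendrites to the cuticle in the fly. noah-1 (174240_at) was among the 3 brightest members, with 8.41, 8.68 and 9.11 in PVD and OLL RNA, against 8.37, 7.78 and 6.42 in whole animals. The nearest arrays of the groups all but met, and the difference of 1.21 ± 0.48 did not pass the test (adjusted p = 0.128). Without whole animal replicate 3 it was 0.66 (adjusted p = 0.174). Its other probe set differed by 1.80 ± 0.50 (adjusted p = 0.0521). noah-2 (181136_s_at) read 7.08, 7.0 and 6.80, against 6.01, 5.78 and 4.62 in whole animals, a rise of 1.49 ± 0.36 (adjusted p = 0.0360, 2.80-fold) without overlap. The only probe set of noah-2 can match several transcripts. The call of noah-2 was lost with centring on medians (adjusted p = 0.05), cyclic loess (adjusted p = 0.0801) and repeated quantile normalization (adjusted p = 0.0930).

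fbn-1 (181745_at) encodes a fibrillin-like ZP protein that helps the embryonic skin keep its shape. Its signals were 5.67, 5.75 and 4.99 in PVD and OLL RNA, against 3.60, 4.47 and 2.85 in whole animals, 1.83 ± 0.42 higher (adjusted p = 0.0303). A second probe set gave 2.10 ± 0.23 (adjusted p = 0.00456). The groups did not overlap on the first probe set, whose call was lost with cyclic loess (adjusted p = 0.0730) and repeated quantile normalization (adjusted p = 0.0855). let-653 encodes a ZP protein of the vulval and excretory duct lumen and did not pass the test: 3.43, 3.81 and 3.64, against 3.67, 3.81 and 3.42 in whole animals (-0.01 ± 0.21, adjusted p = 0.986). Its arrays overlapped throughout.

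sym-1 (193344_at), a secreted leucine-rich repeat protein gene of the skin matrix, had the largest rise of any member on its brighter probe set. It read 8.80, 8.75 and 8.15 in PVD and OLL RNA, against 6.79, 6.36 and 4.51 in whole animals. The difference was 2.68 ± 0.56 (adjusted p = 0.0222), or 6.39-fold, with no overlap and whole animal replicate 3 lowest. A second probe set of sym-1, with means of 2.84 and 2.82, differed by 0.02. With the probe sets averaged the sym-1 difference was 1.35 and the call was lost (adjusted p = 0.0683).

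The cuticlins and cuticlin-like genes (cut and cutl) mostly encode ZP-domain proteins of the cuticle, some of them known from the alae, while cut-2 encodes an insoluble cross-linked cuticle protein. Many cutl genes were dim: of 28, 10 read above background on no array (82.7% of all genes did so on at least 1). On all 3 PVD and OLL arrays 12 did so, against 66.6% of all genes. Of the cutl genes 1 was higher and 2 lower (3.57% and 7.14%, against 8.10% and 4.66% of all genes). Their median of -0.12 moved to -0.32, 0.01 and 0.00 under the other scalings, so no direction is given for them. cutl-20 (175041_s_at) read 6.72, 6.59 and 6.31 in PVD and OLL RNA, against 4.72, 5.81 and 5.17 in whole animals (1.31 ± 0.30, adjusted p = 0.0301). Its arrays did not overlap, yet its probe sets disagreed: the other 3 differed by 2.16 (adjusted p = 0.00419), -0.17 and 0.05. cutl-24 also had probe sets that disagreed, at -0.12 on the brighter and 1.49 (adjusted p = 0.00926) on the other. cutl-15 read 6.19, 6.31 and 5.62, against 5.30, 5.12 and 3.90 in whole animals, and did not pass the test (1.26 ± 0.39, adjusted p = 0.0727).

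The falls in this group lay close to background. cutl-4 (183610_at) read 2.64, 2.52 and 2.65 in PVD and OLL RNA, against 3.62, 3.96 and 3.75 in whole animals (-1.18 ± 0.19, adjusted p = 0.00996), with every array above its background. cutl-1 (188336_at) read 1.80, 1.94 and 2.06, against 2.92, 2.93 and 3.05 in whole animals (adjusted p = 0.0134), and cut-3 (188451_s_at) read 2.10, 2.10 and 2.17, against 3.44, 2.87 and 2.97 in whole animals (adjusted p = 0.0266). The only probe set of cut-3 can match several transcripts. No PVD and OLL array read cutl-1 or cut-3 above background, and whole animal signal exceeded it on 1 array for cutl-1 and on 2 for cut-3, so no fold is given for them. The no-target controls were lower too (median -0.50, lowest -1.28), and the part of background in these falls was not tested. The call of cut-3 was lost with cyclic loess (adjusted p = 0.0512) and repeated quantile normalization (adjusted p = 0.0658), and so was that of cutl-20 (adjusted p = 0.0860 and 0.0846). Of the other cut genes none was called; cut-2, the brightest, differed by -0.22 ± 0.27 (adjusted p = 0.589).

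**Figure D2:**
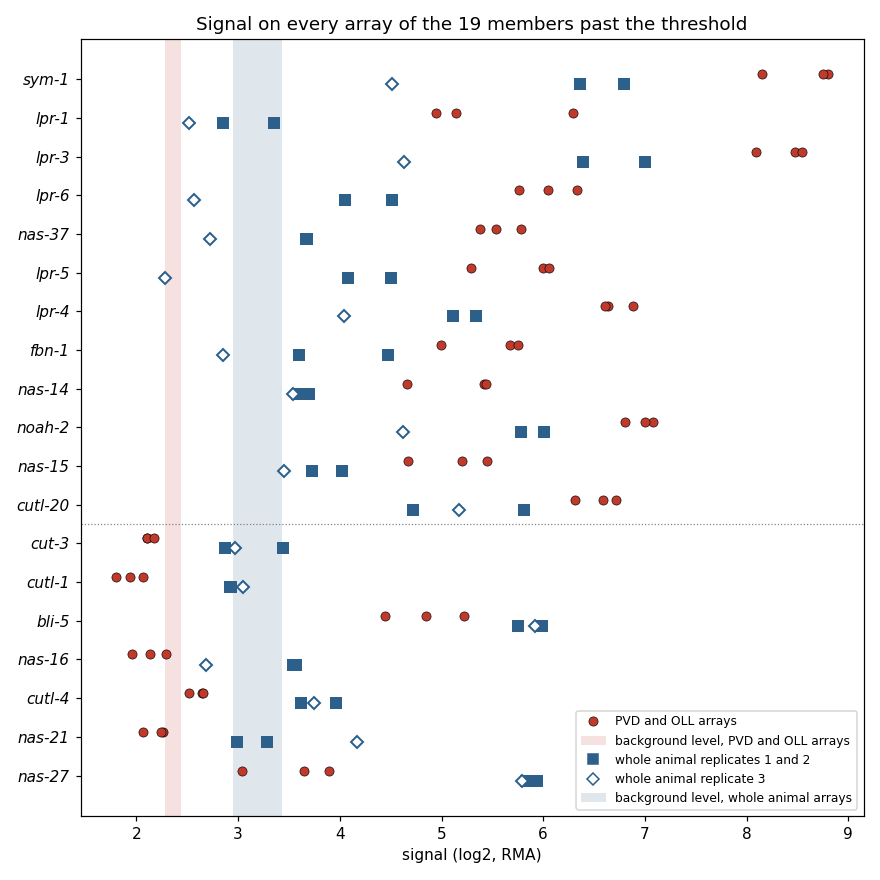
Signal (log2) on every array of the 19 members past the threshold, with PVD and OLL arrays as circles and whole animal arrays as squares with replicate 3 as an open diamond, and bands for the range of background levels in each group. The groups do not overlap in any of the 19, which were called from these same values (40.3% of all genes do not overlap). Whole animal replicate 3 is the lowest array in 11 of the 12 rises, down to 2.28 for lpr-5. It is the lowest whole animal array for 35.7% of all genes.

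The mlt genes were named for larvae that fail to shed the old cuticle, and they encode unrelated proteins. Limma called 0 of the 8 in either direction (at an unadjusted p under 0.05, 4 were higher and 1 lower, against 16.8% and 14.7% of all genes), and the median difference was 0.71, at 0.51 to 0.59 under the other scalings. mlt-11 (194086_at), which encodes a protein with many Kunitz-type protease inhibitor domains, shared the highest mean signal of any member (8.13) with noah-1. Its signals were 8.91, 8.88 and 8.93 in PVD and OLL RNA, against 7.91, 7.96 and 6.22 in whole animals (1.54 ± 0.45, adjusted p = 0.0604). Without whole animal replicate 3 the difference was 0.97 ± 0.18 and passed the test (adjusted p = 0.0204). Another 3 probe sets report mlt-11, of which 2 bright ones differed by 1.03 and 1.01 and a dim one by -0.50. mlt-9 read 8.48, 8.30 and 7.73, against 7.45, 7.25 and 5.40 in whole animals (1.47 ± 0.53, adjusted p = 0.105), without overlap and again with replicate 3 lowest, and differed by 0.82 without that array (adjusted p = 0.0917).

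mlt-10, which encodes a secreted proline-rich repeat protein of the skin and a common reporter of the molt, read 5.19, 4.26 and 3.92 in PVD and OLL RNA, against 4.0, 3.54 and 2.22 in whole animals. Its groups overlapped and it did not pass the test (1.20 ± 0.51, adjusted p = 0.148), and the difference was 0.69 without whole animal replicate 3 (adjusted p = 0.277). mlt-8 read 7.92, 7.67 and 7.87, against 8.30, 8.10 and 7.30 in whole animals, and was close between the groups (-0.08 ± 0.29, adjusted p = 0.858). mlt-7, a heme peroxidase gene whose product cross-links cuticle proteins, went the other way: 6.25, 6.41 and 6.22, against 7.14, 7.32 and 6.59 in whole animals (-0.72 ± 0.24, adjusted p = 0.0838). Without whole animal replicate 3 mlt-7 passed the test at -0.93 ± 0.19 (adjusted p = 0.0269), and it also passed under each of the 3 other scalings (adjusted p between 0.0417 and 0.0479), while its dim second probe set differed by 0.09. mlt-2 and mlt-3 encode ankyrin repeat partners of the NEKL kinases, which act inside skin cells in endocytosis. They differed by 0.72 ± 0.25 (adjusted p = 0.0951) and 0.70 ± 0.35 (adjusted p = 0.208). No whole animal array read mlt-2 above background. Its PVD and OLL mean of 3.11 lay within the whole animal background levels of 2.95 to 3.43.

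Astacins (nas) are secreted zinc metalloproteases, with known roles in the gut, the pharynx and the remodelling of matrix. Of 33 genes 3 rose, 3 fell and 27 did not pass the test. That is 9.09% in each direction, against 8.10% higher and 4.66% lower over all genes. nas-37 (190032_s_at), a protease needed to break the old cuticle at the molt, read 5.54, 5.78 and 5.38 in PVD and OLL RNA, against 3.68, 3.67 and 2.72 in whole animals. It rose by 2.21 ± 0.30 (adjusted p = 0.00682), a 4.62-fold difference without overlap, and kept its call with any of the 6 arrays left out. The only probe set of nas-37 can match several transcripts, as can that of nas-15. nas-36, which acts with nas-37 at the molt, was not called (-0.31 ± 0.37, adjusted p = 0.572), and its PVD and OLL signals of 2.82, 2.89 and 3.83 overlapped those of whole animals at 4.08, 3.35 and 3.05. nas-14 (189899_at) read 4.66, 5.42 and 5.44, against 3.70, 3.58 and 3.54 in whole animals (1.57 ± 0.25, adjusted p = 0.0104). nas-15 (190766_s_at) read 5.20, 5.45 and 4.67, against 3.73, 4.02 and 3.45 in whole animals (1.38 ± 0.27, adjusted p = 0.0183). Neither of these overlapped between the groups; after repeated quantile normalization nas-14 kept its call and nas-15 did not (adjusted p = 0.0531, and 0.0504 with cyclic loess).

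nas-27 (188410_at) had the largest fall of any member. Its signals were 3.89, 3.04 and 3.65 in PVD and OLL RNA, against 5.94, 5.83 and 5.79 in whole animals, so every array exceeded background and the groups lay far apart. It fell by 2.32 ± 0.25 (log2, SE, adjusted p = 0.00456, 5.0-fold) and kept its call with any array left out. nas-21 (189906_at) read 2.26, 2.06 and 2.24, against 3.28, 2.99 and 4.17 in whole animals (-1.29 ± 0.31, adjusted p = 0.0359). No PVD and OLL array and 2 whole animal arrays exceeded background, so no fold is given. The part of the higher whole animal background in this fall was not tested. nas-16 (190038_at) read 1.96, 2.29 and 2.13, against 3.54, 3.57 and 2.68 in whole animals (-1.14 ± 0.28, adjusted p = 0.0385), with 1 PVD and OLL and 2 whole animal arrays above background. Repeated quantile normalization ended the calls of nas-16 (adjusted p = 0.0787) and nas-21 (adjusted p = 0.0642), and cyclic loess that of nas-16 (adjusted p = 0.0638). The neighbour of nas-21, nas-20, read 2.47, 2.63 and 3.17, against 3.11, 3.63 and 6.22 in whole animals, where replicate 3 alone was high; the difference of -1.56 ± 0.74 did not pass the test (adjusted p = 0.185) and was -0.61 without that array.

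Other bright astacins did not pass the test. The brightest, nas-11, differed by 0.22 ± 0.33 (adjusted p = 0.66). nas-4 differed by 1.35 ± 0.38 (adjusted p = 0.0552), nas-9 by 0.97 ± 0.38 (adjusted p = 0.131) and nas-38, known for its part in molting sleep, by -0.72 ± 0.23 (adjusted p = 0.0786). nas-38 passed as lower under each of the 3 other scalings (adjusted p between 0.0246 and 0.0383). nas-7, needed for the pharyngeal grinder together with nas-6, differed by -0.32 ± 0.26 (adjusted p = 0.423). The dimmer nas-29 and nas-30 differed by 1.07 ± 0.37 (adjusted p = 0.0971) and -1.12 ± 0.41 (adjusted p = 0.107).

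Collagens and matrix proteins are cut to size by secreted enzymes. bli-4, a subtilisin-like proprotein convertase of the skin, read 7.67, 7.24 and 7.34 in PVD and OLL RNA, against 6.57, 6.89 and 6.92 in whole animals (0.62 ± 0.21, adjusted p = 0.0919). The arrays did not overlap but the test was not passed, and of its 8 other probe sets, 1 was called, at 0.87 ± 0.23 (adjusted p = 0.0435). dpy-31, the astacin that trims the carboxyl end of a cuticle procollagen, overlapped between the groups: 7.96, 8.03 and 7.22, against 7.75, 7.31 and 7.11 in whole animals (0.35 ± 0.29, adjusted p = 0.426). bli-5 (177581_at), a Kunitz-type protease inhibitor gene, read 4.85, 5.22 and 4.44, against 5.99, 5.75 and 5.92 in whole animals. It fell by 1.05 ± 0.24 (adjusted p = 0.0311) without overlap, but the call was lost in each of the 6 fits with 1 array left out (adjusted p between 0.0529 and 0.0916).

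The spread among the whole animal arrays was shared by many members. Replicate 3 was the lowest whole animal array for 49 of the 90 members (54.4%, against 35.7% of all genes) and lay at least 1 log2 unit below the mean of the other whole animal arrays for 16 (17.8%, against 4.34%). It lay that far above them for 5 members (7.32% of all genes did so). The gap reached -2.06 for both lpr-3 and sym-1, -2.01 for lpr-5 and -1.71 for lpr-6. Without replicate 3 the rises were smaller: 1.68 ± 0.27 for lpr-3, 1.99 ± 0.28 for sym-1, 1.49 ± 0.30 for lpr-5, 1.76 ± 0.26 for lpr-6 and 1.89 ± 0.20 for nas-37. Of the 19 calls 17 were kept without it, while cutl-20 (adjusted p = 0.0564) and bli-5 (adjusted p = 0.0530) were lost. The calls gained numbered 6: mlt-11 and nas-9 (1.37 ± 0.29) higher, and mlt-7, nas-1 (-1.28 ± 0.22), nas-19 (-0.90 ± 0.20) and nas-30 (-1.51 ± 0.33) lower. In that fit 13.9% of all genes were called; leaving out replicate 3 in each group raised this share to 22.3%.

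**Figure D3:**
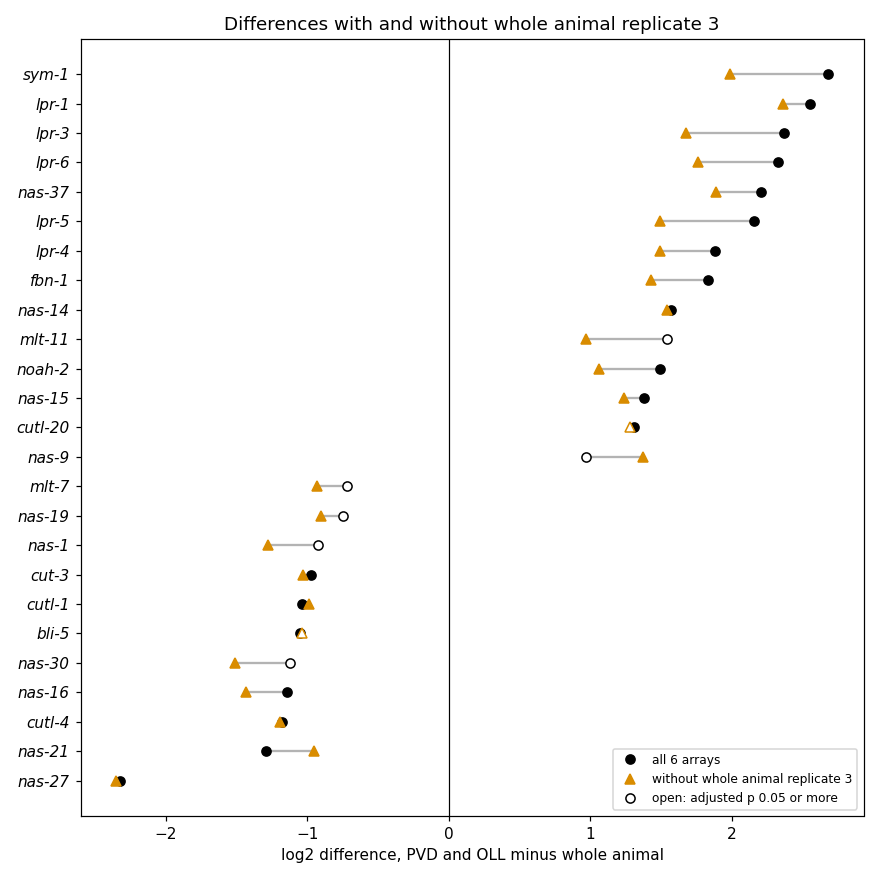
Log2 difference between PVD and OLL and whole animal arrays with all 6 arrays (circles) and without whole animal replicate 3 (triangles), for the members called in either fit, open where the adjusted p was not under 0.05. The lipocalin and sym-1 differences shrink without the array, sym-1 to 1.99, and those of nas-27 and nas-14 hardly move.

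Other transcripts moved with that array. The median of 34 molting regulator and endocytic genes was 6.22, 6.14 and 6.23 on the PVD and OLL arrays, against 5.0, 5.11 and 3.86 on whole animal replicates 1, 2 and 3. The 128 numbered cuticle collagens instead had medians of 5.89, 6.0 and 5.67 on the PVD and OLL arrays, against 7.04, 6.95 and 7.46 on the whole animal arrays, highest on replicate 3. The yolk gene vit-6 read 4.80, 4.96 and 2.97 in PVD and OLL RNA, against 7.15, 6.67 and 9.88 in whole animals. The part of these, and of the higher spike-in controls on replicate 3, in the members' differences was not tested.

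**Figure D4:**
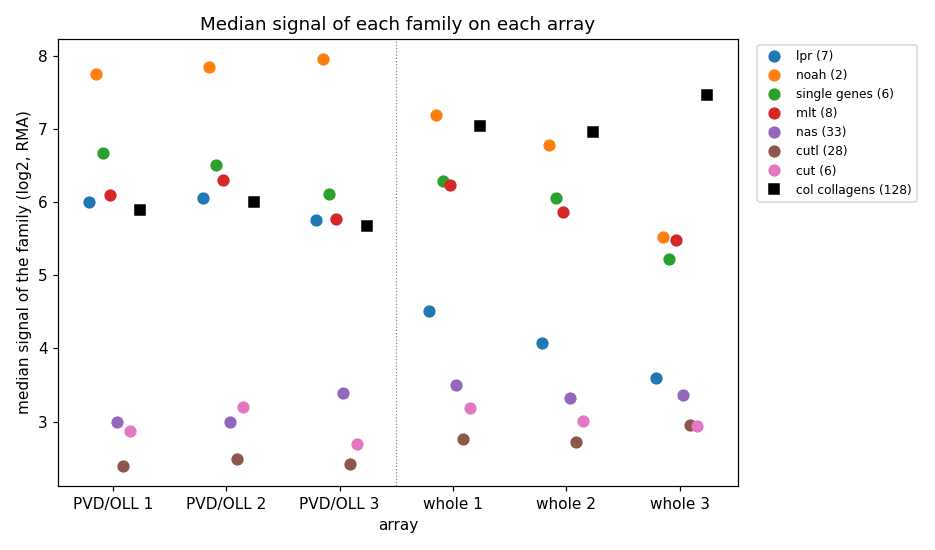
Median signal (log2) of each family on each array, with the 128 numbered collagens as squares. The lpr medians are 6.0, 6.05 and 5.76 in the PVD and OLL group, against 4.51, 4.08 and 3.59 in the whole animal group, while the collagens are lower on all PVD and OLL arrays.

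Other genes were counted from lists on apical matrix, cuticle enzymes and molting that hold no member. Counts of these and of the marker lists below stand beside 8.10% higher and 4.66% lower over all genes. Some of their genes also stand in marker lists: nhr-23, nhr-25, elt-1, elt-3 and grh-1 (epidermis), che-14 (glia), nhr-67 (vulva and uterus), chs-2 (pharynx) and egl-3 (pan-neuronal). Of 13 other apical matrix and attachment genes, 5 were higher and 1 lower, with a median of 0.81. pan-1, a transmembrane leucine-rich repeat protein gene needed for molting, read 8.61, 8.89 and 8.41 in PVD and OLL RNA, against 6.0, 7.02 and 6.16 in whole animals (2.25 ± 0.30, adjusted p = 0.00673). qua-1, a hedgehog-related gene, rose by 1.66 ± 0.38 and spia-1, a furrow collagen-associated protein gene, by 1.56 ± 0.38, both with whole animal replicate 3 lowest. The other called genes of the list, let-4 and egg-6, which encode leucine-rich repeat proteins of epithelial tubes, rose by 1.34 ± 0.29 (adjusted p = 0.0257) and 1.36 ± 0.29 (adjusted p = 0.0241), with replicate 3 the highest whole animal array. Both were named after their values were seen. mup-4, which encodes a matrix receptor of the attachments between muscle and cuticle, fell by 1.08 ± 0.19 (adjusted p = 0.0128), but with probe sets that can match several transcripts left out it differed by -0.27 (adjusted p = 0.485). The calls of qua-1 and spia-1 were lost with cyclic loess (adjusted p = 0.0686 and 0.0667).

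Of 34 molting regulators and endocytic genes 9 were higher and 0 lower, with a median of 0.82. The transcription factor gene myrf-1, which drives molting and synaptic rewiring, rose by 3.33 ± 0.34 (adjusted p = 0.00439), the period homologue lin-42, which times molts, by 3.18 ± 0.36 (adjusted p = 0.00456), and blmp-1, a zinc finger regulator of oscillating genes, by 2.34 ± 0.52 (adjusted p = 0.0272). Among 28 genes of the cuticle enzyme list, which includes convertases of neurons, 4 were higher and 2 lower. The proprotein convertase genes egl-3 and kpc-1, which act in neurons, rose by 2.10 ± 0.44 and 1.31 ± 0.23, and the disintegrin metalloprotease gene sup-17 by 0.95 ± 0.25. The peroxidase gene skpo-3 fell by 1.35 ± 0.20 (adjusted p = 0.00878) and the tetraspanin gene tsp-15 by 0.72 ± 0.19 (adjusted p = 0.0473). Of 10 MLT-10-related (mltn) genes 1 was higher, mltn-9 at 1.01 ± 0.26, and 5 read above background on no array. With cyclic loess the calls of blmp-1 (adjusted p = 0.0557), sup-17 (adjusted p = 0.207) and mltn-9 (adjusted p = 0.112) were lost.

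Markers of matrix-making cells were present in the pulled-down RNA. Of 12 epidermal markers 6 were higher and 0 lower, and all 12 read above background on every PVD and OLL array. Their summed linear signal was 4760 to 5760 on those arrays, against 5320 to 6530 on whole animal arrays. All sums given here weigh the brightest genes most. In this list that was sqt-3, at 11.78, 11.80 and 11.21, against 12.10, 12.05 and 12.09 in whole animals (-0.49 ± 0.22, adjusted p = 0.175). dpy-5 also differed downward without a call (-0.54 ± 0.36, adjusted p = 0.338). dpy-8, a furrow collagen, rose by 3.78 ± 0.37 and nhr-23, the receptor that drives the molting cycle, by 1.65 ± 0.30 (adjusted p = 0.0140). Of 8 seam markers 4 were higher and 0 lower (summed signal 1070 to 1470, against 890 to 1370 in whole animals). For 11 markers of glia, socket and sheath the counts were 3 and 0 (525 to 692, against 210 to 354). For 17 pharyngeal markers they were 3 and 0 (1320 to 1730, against 984 to 1400). For 9 vulval and uterine markers they were 3 and 0 (336 to 411, against 147 to 164). A list of 8 excretory and rectal markers, which includes genes of the excretory canal, had 1 and 0 (470 to 560, against 337 to 623). Its call was exc-4 (1.11 ± 0.24, adjusted p = 0.0266), and its brightest gene on every array was vha-8, which was not called. lin-48, egl-38 and aff-1 of that list were not called, so its count and sum are not read for the duct, pore or rectum. Of 16 pan-neuronal markers 8 were higher and 0 lower (1960 to 3720, against 1260 to 1450 in whole animals), of 10 body wall muscle markers 2 and 1 (9790 to 12000, against 7430 to 11500), of 9 intestinal markers 1 and 2 (4490 to 4760, against 2910 to 4370), and of 9 germ line markers 0 and 1 (670 to 991, against 866 to 904). No marker in these lists read below background on all arrays. The 3 glial calls were itx-1 (1.34 ± 0.22), lit-1 (1.11 ± 0.30) and lin-26 (1.56 ± 0.42), the brightest of that list on every array. lin-26 also stands in the epidermal list. The other glial markers were not called, with differences from -0.17 (che-14) to 0.26 (fig-1), so the glial sum reflects those 3 genes. The pharyngeal calls were peb-1 (3.49 ± 0.40), pha-4 (3.23 ± 0.57) and ceh-34 (2.12 ± 0.36). Other pharyngeal markers ran from -0.59 to 1.18 without a call. The vulval and uterine calls were vab-23 (1.58 ± 0.20), lin-11 (1.58 ± 0.19) and egl-13 (1.47 ± 0.27). Other markers of that list ran from -0.24 to 1.01 without a call. Neither count is read for a whole tissue. The part of RNA from any of these cells in the members' rises was not tested. Of the 128 numbered collagens 1 was higher and 69 lower (54.7% called).

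The calls rested on few arrays. Leaving out single arrays ended 16 of the 19 calls in at least 1 of 6 fits, and lpr-1, nas-37 and nas-27 kept theirs in all 6. Without PVD and OLL replicate 2 those 3 were the only ones left, with 2 members higher and 1 lower. The calls over all probe sets dropped in that fit too, from 2099 to 577 higher and from 964 to 208 lower. Leaving out PVD and OLL replicate 1 gave 3 higher and 2 lower. The counts were 9 and 4 with PVD and OLL replicate 3 left out, and 9 and 3 with whole animal replicate 1 left out.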

How the data were processed

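The values were the authors' deposited series matrix, with 1 value per probe set and array for 6 Affymetrix arrays, made with RMA per the submitters' processing notes; its software and version were not given in the sources used here. Values from 1.21 to 13.9 led to reading the deposited scale as log2. Scanner files were not used. Of 22625 probe sets, 77 controls were left out and 22548 tested. Array annotation gave 1 gene to 20766, several to 887 and none to 895, and 20701 names were matched to RefSeq (WBcel235, names and neighbours only). Each gene was represented by its probe set with the highest mean. Of the 90 members 19 had several probe sets, and in 8 these differed in sign. Sequence tables and a genome were not used here.

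Differences (PVD and OLL minus whole animal) came from limma 3.58.1 (lmFit, eBayes; R 4.3.3), Benjamini-Hochberg adjusted over all tested probe sets, called under 0.05, two-sided; errors are moderated SE, n = 3 arrays per group. The number of arrays limits the precision. Where no whole animal array exceeded background (the 95th percentile of 32 controls), folds are lower bounds against it. Where no PVD and OLL array did, no fold is given, since background was higher in the whole animal group. On 22548 simulated probe sets, limma recovered 54% of those raised by 2 (log2) and 50% of those at -2, but 6% and 4% for changes of 1 and -1. Among 62 calls, 5 were false. The simulation changed 50 probe sets at each size, and its calls were far fewer than the 3063 on the real arrays. Its adjusted threshold was therefore stricter, and these rates do not give the recovery on the real arrays. Members and lists were chosen with earlier results of these data known. Every member could be named; array values were to be given for called members, the 3 brightest, the singly named genes, noah-1, noah-2, mlt-8, mlt-10 and mlt-11. Those of other members (mlt-7, mlt-9, cutl-15, nas-20, nas-36) were added after their values were seen. From each pathway list up to 3 called genes per direction, and from each marker list at most 4, could be named. Marker genes that carried a count, a sum or an overlap, or that were not called, were named beyond this after their values were seen. Alternatives were other scalings, a filter on dim probe sets, probe set choice, a variance trend, the replicate number as a block and leaving out arrays.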

Additional observations from a re-analysis of the deposited data

How the results depend on the processing

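With single arrays left out, members called higher ranged from 2 to 13 and lower from 1 to 10, and all probe sets from 577 to 2017 higher and 208 to 1222 lower; the lowest counts came without PVD and OLL replicate 2. The member median ranged from -0.07 to -0.01. Without replicate 3 of both groups, added after seeing the data, 18 members were higher and 11 lower (3300 and 1842 over all probe sets), and all 19 calls were kept. Centring on medians gave 11 members lower, 1952 probe sets lower and a member median of -0.26. Repeated quantile normalization left 5 members and 1192 probe sets higher and cyclic loess 7 and 1195, keeping 9 and 12 of the 19 calls. Probe sets that can match several transcripts left out gave 1186 probe sets higher and 600 lower, and all 14 called members still measured kept their calls. lpr-5, noah-2, cut-3, nas-15 and nas-37 were no longer measured, and nas members called higher went from 3 to 1. Without the dimmest 25% of probe sets the member median was 0.19, since dim members left the list. The replicate numbers did not pair the arrays (correlations of same-numbered deviations -0.05, -0.07 and -0.10); with the replicate number as a block, 12 members were higher and 3 lower, 14 of the 19 calls were kept, and 1224 probe sets were higher and 405 lower. Where no construction is named, the cause was not tested.

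Members near 0 changed sign with single arrays left out: let-653 between -0.11 and 0.09, mlt-8 between -0.38 and 0.12 and cutl-24 between -0.28 and 0.05. With probe sets averaged cutl-24 was at 0.68. mlt-7 was not near 0 on its bright probe set (-0.72), and the 0.09 came from its dim one. Signals near background limit what can be read for the 15 members above it on no array.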
